A study of Mus musculus with 6 samples.

Results

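Keratins were examined in 6 tumours grown under the skin of mice from KPC1199 cells, which are a line of mouse pancreatic duct cancer. They comprised 9 genes, the simple keratins Krt7, Krt8, Krt18, Krt19, Krt20 and Krt23 and the basal keratins Krt5, Krt14 and Krt17, out of 18194 genes named on the array. The genes were chosen by name, with earlier results of these data in view: Krt5 and Krt19 had already been described in the same comparison. The differences between the groups are therefore given as a description. A test over all genes that passed a filter on signal level included 8 of the 9 keratins, and nothing is read from its counts. In all, 14 probe sets carried only a member's name, and a further probe set shared by Krt17 and Krt14 was set aside.

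The tumours came from 3 mice labelled lactation and 3 labelled control. In the lactation group the cells were injected during pregnancy or at the start of nursing, and the labels do not say which applied to which mouse. All tumours were collected 20 days after injection, from mice of matched age. The labels give no host strain and no alleles of the line, and every tumour derived from this line, so the tumours differ in host and not in the source of their cancer cells. Each tumour was measured on its own Affymetrix array, whose MAS5 signal is a linear brightness in arbitrary units. Array medians lay between 99.3 and 111.0, and the number of arrays limits the precision.

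Keratins are the intermediate filament proteins of epithelial cells. A filament is built from pairs of an acidic type I keratin and a basic type II keratin. Krt8 (type II) and Krt18 (type I) form the filament of simple epithelia such as pancreatic duct, where Krt7 (type II) and Krt19 (type I) are added. Krt20 and Krt23 are type I keratins; Krt20 is best known from gut epithelium. Krt5 (type II) and Krt14 (type I) pair in the basal layer of stratified epithelia, and Krt17 (type I) appears in hair follicle and in wounded skin. In pancreatic cancer, basal keratins are known from tumours described as basal-like or squamous.

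The tumours expressed most genes of a list of carcinoma epithelium markers, although Cftr lay below the array median on every array. Which epithelial cells gave this signal was not tested. Of 17 carcinoma epithelium genes with a probe set, 15 passed the level filter, which asks that at least 3 of the 6 arrays reach their array's median. The adhesion molecule Epcam had signals of 7016, 5029 and 9208 in lactation tumours and 6651, 4746 and 6976 in control tumours. Summed over the 17 genes, the signal was 33705 to 57037 in lactation tumours and 30096 to 42214 in control tumours. Lactation replicate 3 held the highest sum. In bulk tumours, fewer cells of a type and less RNA per cell cannot be told apart.

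The 9 keratins fell into sets that differed in how much they varied from tumour to tumour. Krt8 and Krt18 were nearly level across all 6 tumours, Krt7 and Krt19 varied moderately, and Krt5, Krt14, Krt17, Krt20 and Krt23 varied most. All 9 had a higher mean log2 value in lactation tumours, although the small differences of Krt8 and Krt18 turned negative without lactation replicate 3 or control replicate 2 that of Krt18 also when arrays were centred on their medians, and those of Krt7, Krt8 and Krt18 when the mean of other epithelial genes, itself 0.25 higher in lactation, was taken off. The median difference of the 9 was 0.29 on the log2(signal + 16) scale, beside -0.01 over the 11623 genes that passed the level filter, of which 48.3% had a positive difference. That scale understates the change of dim genes.

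Of the 9 keratins, 8 passed the level filter and Krt23 did not. Krt20 passed through the 3 lactation arrays and control replicate 2. limma's fit over the 11623 genes tested called 0 in the higher and 0 in the lower direction after Benjamini-Hochberg adjustment at 0.05, a share of 0% each, so 0 of the 8 keratins were called. Without adjustment 264 genes, or 2.27%, had a p under 0.05, and 2 of the 8 keratins, Krt5 and Krt20, were among them. Signals of the groups did not overlap in 1 of the 8 keratins, Krt5, which was higher in lactation. Among all genes tested, 3.71% were higher and 3.19% lower without overlap. Since the keratins were chosen with this comparison known, nothing is read from these counts.

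**Figure D1:**
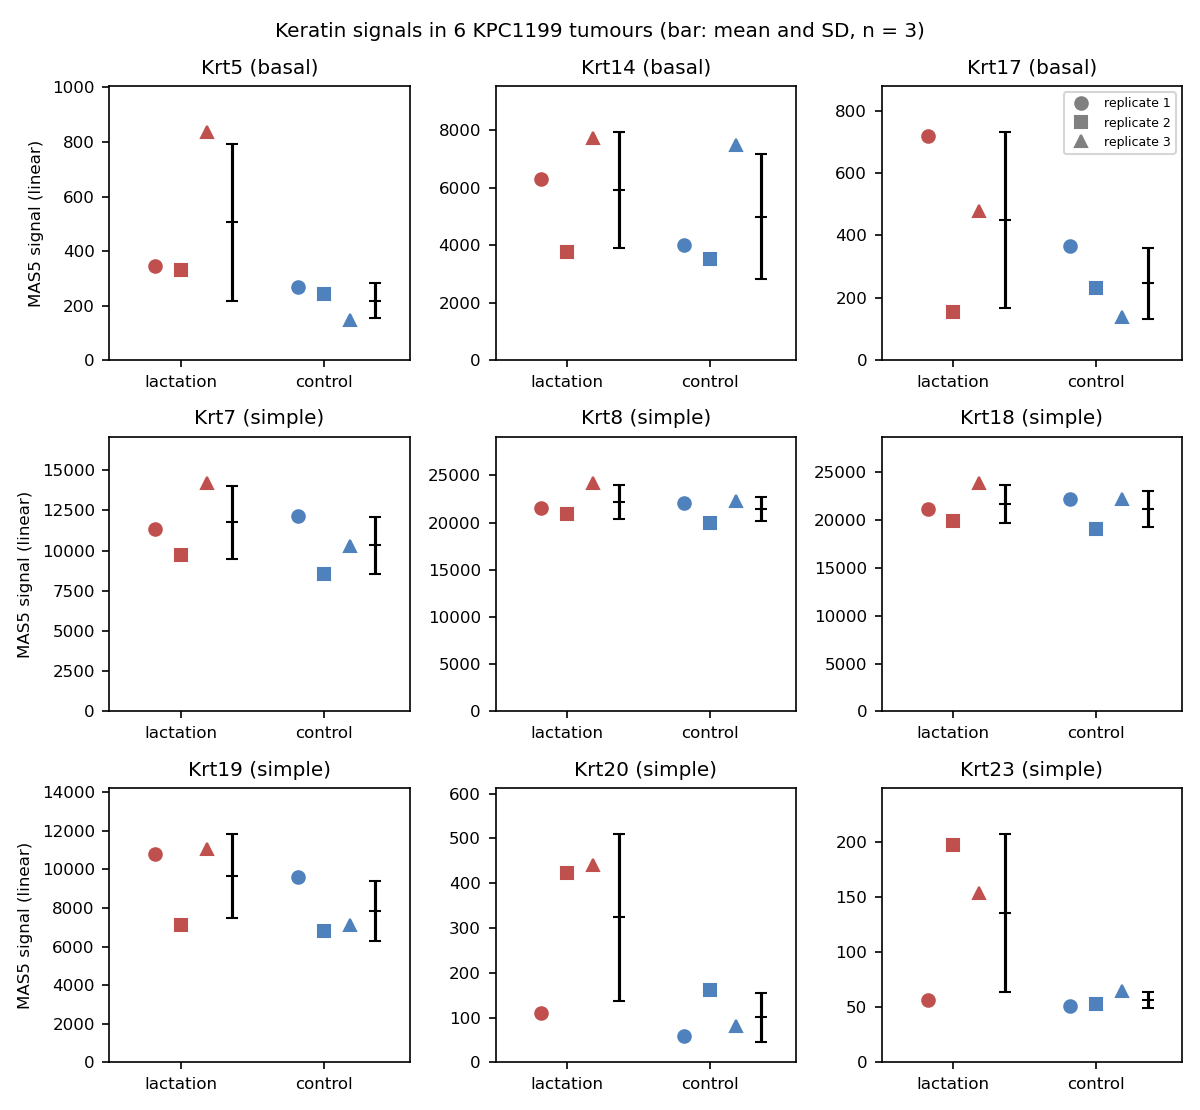
Each panel plots the linear MAS5 signal of a keratin gene (y axis, from 0) in the tumours of the lactation group and the control group (x axis), with a marker per tumour and a bar for the mean and SD of 3. The groups are apart for Krt5, where the lowest lactation tumour has 331 and the highest control tumour 269, and they overlap in the other panels.

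Among the simple keratins, Krt8 and Krt18 were the most even. Krt8, the type II partner of the simple filament, had signals of 21505, 20863 and 24228 in lactation tumours and 22053, 19958 and 22320 in control tumours. Krt18, its type I partner, had 21176, 19919 and 23872 in lactation tumours and 22223, 19004 and 22179 in control tumours. Lactation replicate 3 was highest and control replicate 2 lowest for both genes, and the groups overlapped. The highest tumour exceeded the lowest 1.21-fold for Krt8 and 1.26-fold for Krt18. The log2 difference, lactation minus control, was 0.05 (standard error 0.08) for Krt8 and 0.03 (standard error 0.11) for Krt18, where every standard error is that of a difference between 3 and 3 arrays. The other probe sets of Krt8 gave differences of 0.04 and 0.05.

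Krt8 and Krt18 also kept closest step with each other. With each gene centred on its own mean over the 6 arrays, their root mean square difference was 0.03 log2 units, the smallest of the 36 pairs of keratins. This measure is small for any pair of genes that vary little. Both genes lay near the top of the signal range, since the brightest probe set of each array had 28350 to 32772. Whether brightness was limited there was not tested.

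Krt7, the type II keratin of ducts, had signals of 11349, 9693 and 14213 in lactation tumours and 12134, 8551 and 10273 in control tumours. Krt19, the type I duct keratin, had 10783, 7138 and 11061 in lactation tumours and 9611, 6801 and 7101 in control tumours. For both genes, lactation replicates 1 and 3 and control replicate 1 held the top 3 places, so the split crossed the groups. The highest tumour exceeded the lowest 1.66-fold for Krt7 and 1.63-fold for Krt19. The log2 difference of Krt7 was 0.18 (standard error 0.22), and it was lowest without lactation replicate 3, at 0.04, and highest without lactation replicate 2, at 0.31. For Krt19 it was 0.29 (standard error 0.26), with 0.18 when lactation replicate 3 and 0.50 when lactation replicate 2 was left out. The centred profiles of Krt7 and Krt19 differed by 0.14 log2 units.

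Krt20 and Krt23, type I keratins whose genes lie next to each other on chromosome 11, behaved differently from the other simple keratins. Krt20 had signals of 109, 423 and 441 in lactation tumours and 57.9, 163 and 82.0 in control tumours. Krt23 had 56.7, 197 and 153 in lactation tumours and 51.4, 52.9 and 64.9 in control tumours. Lactation replicates 2 and 3 stood above all other tumours for both genes, while lactation replicate 1 lay within the control range. The highest tumour exceeded the lowest 7.60-fold for Krt20 and 3.83-fold for Krt23.

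Mean signals of Krt20 were 324 ± 186 in lactation tumours and 101 ± 54.8 in control tumours (SD, n = 3 each), a log2 difference of 1.43 (standard error 0.72). Without lactation replicate 1 this difference was 2.04, and without lactation replicate 3 it was 1.10. Krt23 averaged 136 ± 71.7 in lactation tumours and 56.4 ± 7.41 in control tumours (SD, n = 3 each), a log2 difference of 0.93 (standard error 0.48). Without lactation replicate 2 it was 0.62, and without lactation replicate 1 it was 1.40. Control signals of Krt23 lay below the array medians in all 3 tumours, and with an added constant of 64 in place of 16 its difference was 0.66. The centred profiles of Krt20 and Krt23 differed by 0.50 log2 units, while Krt20 differed from Krt8, Krt18, Krt7 and Krt19 by 1.002 to 1.052.

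The basal keratins did not move as a unit. Krt5, the type II keratin of basal cells, had signals of 347, 331 and 838 in lactation tumours and 269, 242 and 147 in control tumours. All 3 lactation tumours lay above all 3 control tumours, and lactation replicate 3 stood far above the rest. The means were 505 ± 288 in lactation tumours and 219 ± 64.2 in control tumours (SD, n = 3 each). The log2 difference was 1.06 (standard error 0.49). It was 0.63 without lactation replicate 3, and 1.28 without lactation replicate 2.

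Krt14, the type I partner of Krt5, followed another order. Its brightest probe set had signals of 6313, 3762 and 7734 in lactation tumours and 4006, 3521 and 7480 in control tumours. Control replicate 3, the lowest tumour for Krt5, was the second highest for Krt14, and the groups overlapped. A second bright probe set had 4517, 2506 and 5871 in lactation tumours and 2856, 2634 and 6432 in control tumours, with the same 2 tumours on top. Log2 differences were 0.27 (standard error 0.46) for the first probe set and 0.15 (standard error 0.55) for the second. For the first probe set the difference was 0.04 without lactation replicate 3 and 0.60 without control replicate 3. The remaining Krt14 probe set reached the array median on 2 arrays only and gave 0.13. The centred profiles of Krt5 and Krt14 differed by 0.75 log2 units, more than the root mean square spread of either gene around its own mean, which was 0.72 for Krt5 and 0.47 for Krt14.

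Krt17, the type I keratin of wounded and follicular epithelium, had signals of 718, 156 and 477 in lactation tumours and 368, 232 and 140 in control tumours. Lactation replicate 1 was highest, and lactation replicate 2 lay between the control tumours. The highest tumour exceeded the lowest 5.13-fold, against 5.71-fold for Krt5 and 2.20-fold for Krt14. The log2 difference of Krt17 was 0.69 (standard error 0.73). It was 0.25 without lactation replicate 1 and 1.29 without lactation replicate 2. The top 3 tumours of Krt17 were those of Krt7 and Krt19. Another Krt17 probe set lay below the array median on every array. Its signals were 4.89, 6.81 and 35.6 in lactation tumours and 20.8, 5.53 and 2.50 in control tumours.

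**Figure D2:**
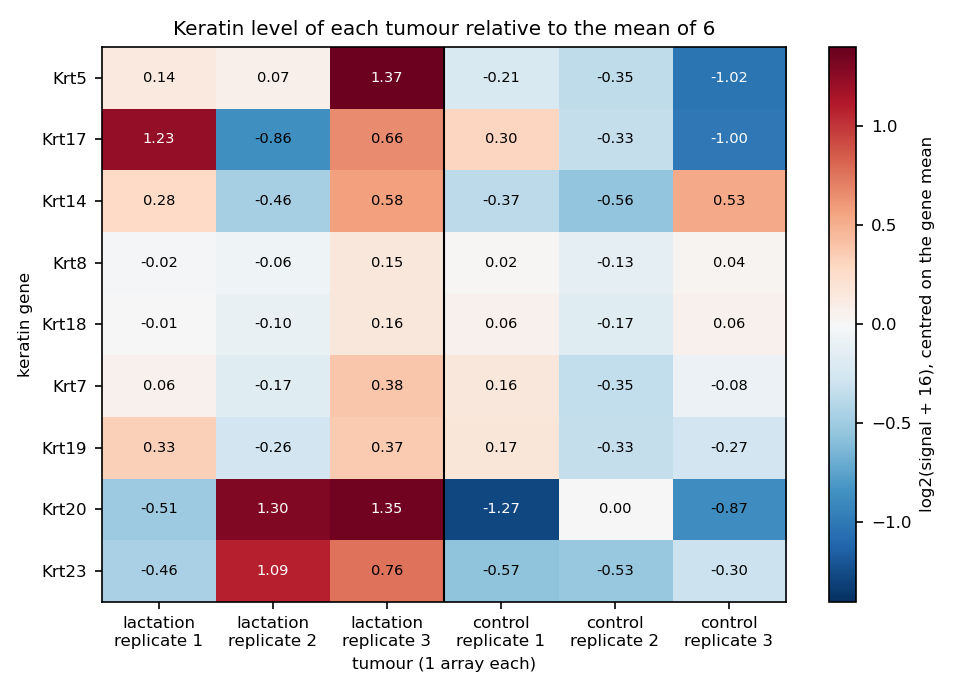
Each cell gives the log2(signal + 16) of a keratin (rows) in a tumour (columns, lactation left of the line) after subtracting the gene's mean over 6 tumours; red is above and blue below that mean. Krt8 and Krt18 stay within 0.17 of their means, Krt20 and Krt23 are high in lactation replicates 2 and 3, and control replicate 3 has -1.02 for Krt5 and 0.53 for Krt14.

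Class averages joined keratins of unlike pattern. The mean log2 value of the 6 simple keratins was 11.46, 11.87 and 12.10 in lactation tumours and 11.33, 11.31 and 11.33 in control tumours, a difference of 0.49 (standard error 0.18). Krt20 and Krt23 carried most of it. The mean of Krt7, Krt8, Krt18 and Krt19 differed by 0.14 (standard error 0.16), and that of Krt20 and Krt23 by 1.18 (standard error 0.57). The mean of the 3 basal keratins was 10.22, 9.25 and 10.53 in lactation tumours and 9.57, 9.25 and 9.17 in control tumours, a difference of 0.67 (standard error 0.41). Without lactation replicate 2 the basal difference was 1.05, and without lactation replicate 3 it was 0.40. Basal minus simple, centred over the arrays, was 0.65, -0.71 and 0.34 in lactation tumours and 0.15, -0.16 and -0.26 in control tumours. Lactation tumours spanned the whole control range in both directions, and the difference of 0.18 (standard error 0.43) became -0.10 without lactation replicate 1 and 0.59 without lactation replicate 2.

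A mean over other epithelial genes also differed between tumours. The mean log2 value of the 15 tested carcinoma epithelium genes, centred over the arrays, was -0.0025, -0.22 and 0.60 in lactation tumours and 0.16, -0.39 and -0.15 in control tumours, a difference of 0.25 (standard error 0.29). This mean is a summary of chosen genes and does not measure epithelial content. Krt8 and Krt18 varied less, but near the top of the signal range, where a limit of brightness was not tested. When this mean was subtracted from each keratin on the same array, an alternative chosen after seeing the data, every keratin's log2 difference dropped by that 0.25, so any smaller difference had to turn negative. The log2 difference became -0.07 (standard error 0.09) for Krt7, -0.20 (standard error 0.22) for Krt8, -0.22 (standard error 0.20) for Krt18 and 0.04 (standard error 0.17) for Krt19. Relative to epithelial genes, Krt5 was higher in lactation by 0.80 on the log2 scale (standard error 0.32). Its relative values were 0.14, 0.29 and 0.77 in lactation tumours and -0.37, 0.04 and -0.87 in control tumours, still without overlap. Krt17 gave 0.44 (standard error 0.63), Krt14 0.01 (standard error 0.39), Krt20 1.17 (standard error 0.79) and Krt23 0.68 (standard error 0.55).

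**Figure D3:**
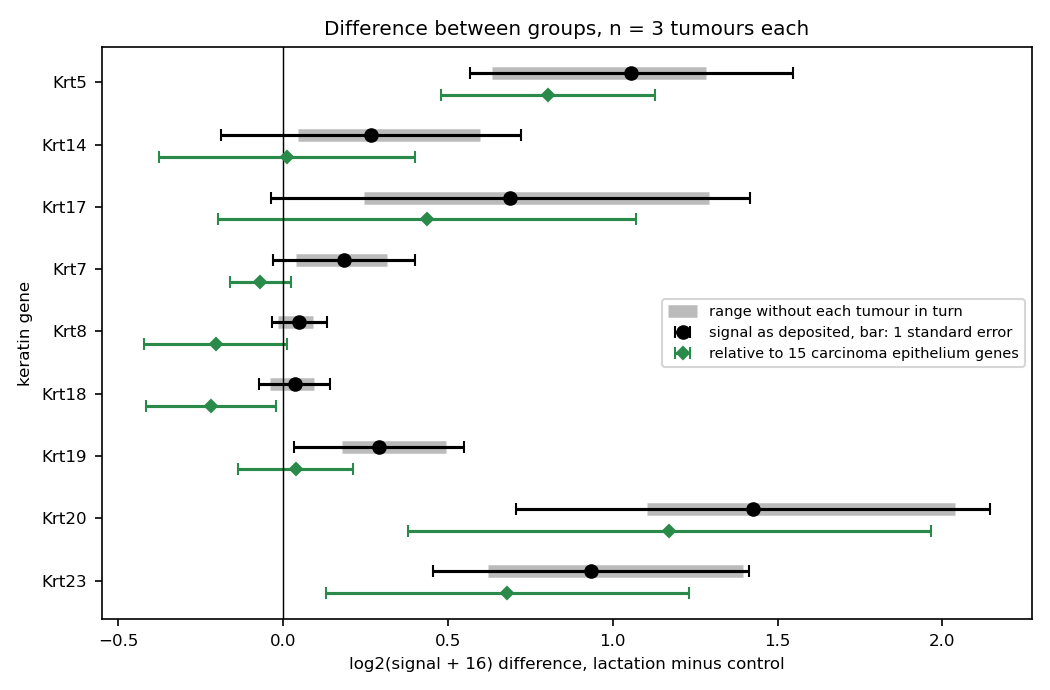
For each keratin (y axis) the black point and bar give the log2(signal + 16) difference, lactation minus control, with 1 standard error (x axis, n = 3 tumours each), the grey band the range when each tumour is left out in turn, and the green point and bar the difference relative to 15 carcinoma epithelium genes. Taking the mean of those genes off lowers every keratin's difference by the same 0.25, which leaves Krt5 at 0.80 and Krt7, Krt8 and Krt18 between -0.22 and -0.07.

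Promoter sequence is shown for Krt8 and Krt18, the closest pair in pattern, for Krt20 and Krt23, neighbouring genes with lactation replicates 2 and 3 on top, and for Krt5, whose groups were apart. RefSeq promoter entries on GRCm38.p6 matched 7 of the 9 keratins. Krt17 and Krt19 had no entry. Each line gives the 250 bases before the annotated start, 5′ to 3′ in the direction of the gene, and capitals mark the word ATAAAA, which contains most of a TATA box. The word was chosen after the sequences had been seen. Krt5 lies at chr15:101712906-101713155, minus strand, Krt8 at chr15:102004343-102004592, minus strand, and Krt18 at chr15:102027966-102028215, plus strand. Krt20 lies at chr11:99438154-99438403 and Krt23 at chr11:99493121-99493370, both on the minus strand.
Krt5: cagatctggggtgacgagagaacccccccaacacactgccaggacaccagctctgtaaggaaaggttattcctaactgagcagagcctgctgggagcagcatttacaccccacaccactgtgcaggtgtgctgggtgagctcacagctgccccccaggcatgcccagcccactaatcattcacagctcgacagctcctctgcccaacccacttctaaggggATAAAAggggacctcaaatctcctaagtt
Krt20: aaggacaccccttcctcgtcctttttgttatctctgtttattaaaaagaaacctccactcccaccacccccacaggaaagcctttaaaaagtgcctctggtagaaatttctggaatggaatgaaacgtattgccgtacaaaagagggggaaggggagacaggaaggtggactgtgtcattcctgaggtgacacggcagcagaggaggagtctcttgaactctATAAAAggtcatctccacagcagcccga
Krt23: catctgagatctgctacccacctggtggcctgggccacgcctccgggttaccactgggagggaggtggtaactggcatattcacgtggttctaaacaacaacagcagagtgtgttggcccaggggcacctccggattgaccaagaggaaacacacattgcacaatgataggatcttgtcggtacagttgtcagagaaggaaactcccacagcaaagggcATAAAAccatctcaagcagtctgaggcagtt
Krt8: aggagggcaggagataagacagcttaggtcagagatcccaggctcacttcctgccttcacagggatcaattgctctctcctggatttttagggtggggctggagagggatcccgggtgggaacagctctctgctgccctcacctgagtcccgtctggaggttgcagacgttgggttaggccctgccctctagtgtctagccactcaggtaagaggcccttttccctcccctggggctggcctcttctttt
Krt18: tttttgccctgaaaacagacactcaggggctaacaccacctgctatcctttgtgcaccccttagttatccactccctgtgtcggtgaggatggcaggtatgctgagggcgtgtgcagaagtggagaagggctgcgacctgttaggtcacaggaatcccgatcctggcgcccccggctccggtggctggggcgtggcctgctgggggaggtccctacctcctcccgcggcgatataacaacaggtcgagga

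Searched on both strands, ATAAAA was present in the windows of Krt5, Krt7, Krt20 and Krt23 and in 17.0% of 32851 promoter windows of the same length. Its first base lay 29 bases before the start in Krt5, 28 in Krt20 and 31 in Krt23. Of all windows, 1.40% held the word on the written strand with its first base 25 to 35 bases before the start. In Krt7 it lay 7 bases before the start. The windows of Krt8, Krt18 and Krt14 did not hold these letters, which does not exclude other TATA-like words. The Krt18 window held TATAA near its end, a word that was not searched for. The Sp1 word GGGCGG, in 32.7% of all windows, was found in Krt7 only, with 4 matches. The AP-1 word TGANTCA, in 6.75% of all windows, was found in none of the 7. No match of a word overlapped a match of another. A match describes the letters of the window and says nothing of binding.

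The genes nearest to a keratin in pattern were taken from all other genes tested, by the smallest root mean square difference of centred log2 values over the 6 arrays. For Krt5 they were Scel, which encodes sciellin of the cornified envelope, at 0.15, and the cytochrome P450 gene Cyp2s1 at 0.25. Scel had signals of 1003, 892 and 2342 in lactation tumours and 925, 601 and 398 in control tumours. As with Krt5, lactation replicate 3 was the highest and control replicate 3 the lowest. For Krt14 the nearest genes were Mme, a membrane metalloprotease, at 0.09 and Cemip, a hyaluronan-binding protein, at 0.11. Mme had 187, 94.5 and 243 in lactation tumours and 121, 85.7 and 211 in control tumours. For Krt17 they were the transcription factor gene Onecut2 at 0.21 and the growth factor receptor gene Fgfr3 at 0.22. Onecut2 had 3193, 1068 and 3298 in lactation tumours and 2260, 1356 and 1003 in control tumours.

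For Krt20 the nearest genes were Ighm, the constant region of the immunoglobulin M heavy chain, at 0.28, and Ido1, a tryptophan-degrading enzyme, at 0.41. Ighm had signals of 3618, 8401 and 7590 in lactation tumours and 1545, 4906 and 2054 in control tumours. Ido1 had 146, 526 and 560 in lactation tumours and 124, 434 and 191 in control tumours. Lactation replicates 2 and 3 were highest and control replicate 1 was lowest for Krt20, Ighm and Ido1. Among the other simple keratins the nearest genes were Arrdc3 (0.04) and Hes1 (0.05) for Krt7, Pgam5 (0.02) and Larp4 (0.02) for Krt8, Siae (0.02) and Fam91a1 (0.02) for Krt18, and Zfp599 (0.05) and Lurap1l (0.07) for Krt19. Likeness over 6 arrays that share the same tumours is a description of these arrays, and among so many genes some will lie near any profile.

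**Figure D4:**
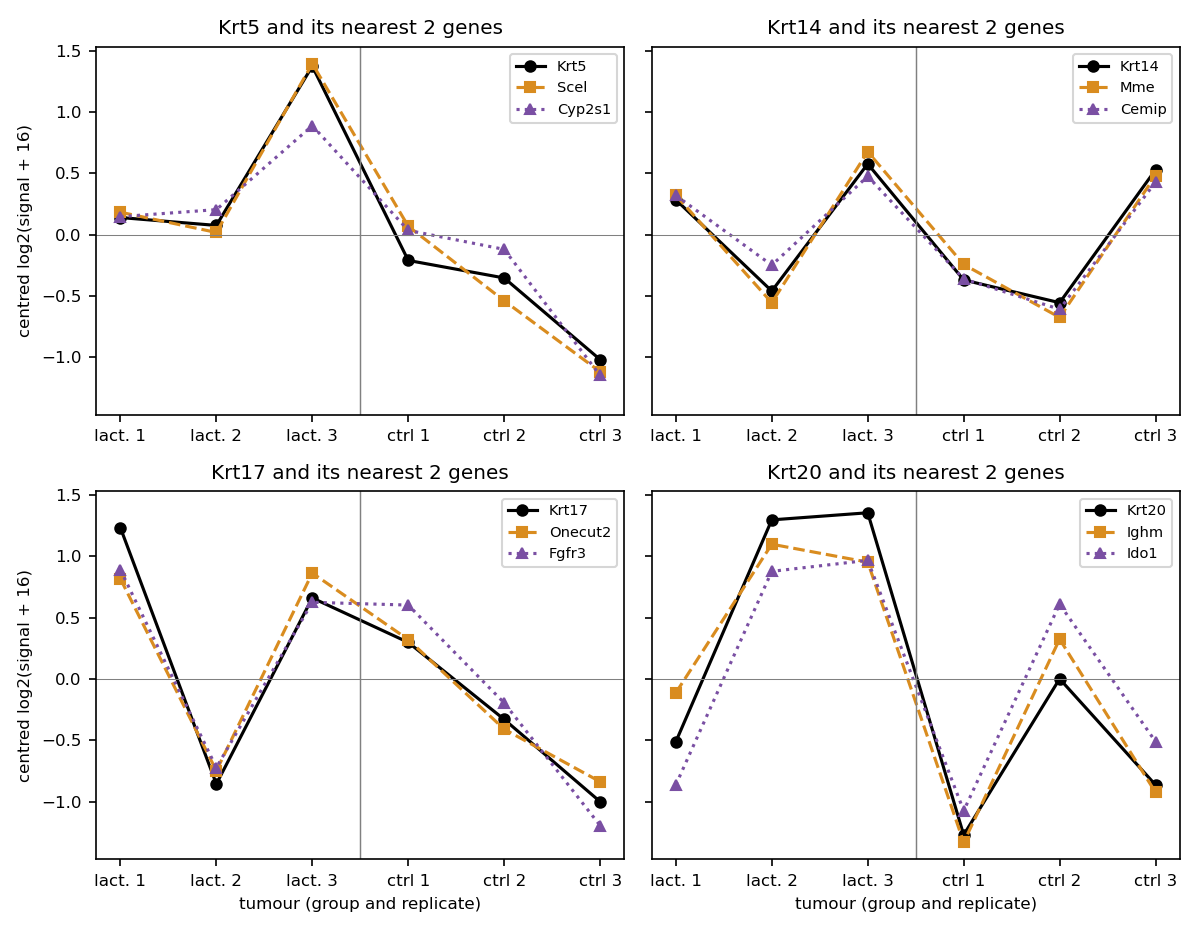
Each panel plots the centred log2(signal + 16) (y axis) of a keratin and its nearest 2 genes in the 6 tumours (x axis, lactation left of the vertical line); lines only join the points of a gene, since tumours have no order. Krt5 and Scel peak in lactation replicate 3, Krt14 and Mme in lactation replicate 3 and control replicate 3, and Krt20, Ighm and Ido1 in lactation replicates 2 and 3.

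Genes that anchor or accompany keratin filaments were described by lists chosen with earlier results of these data known. In the list of cytolinkers and desmosome genes, 13 of 16 with a probe set were tested. Of these 10 had a positive and 3 a negative difference, with a median of 0.13, and limma called 0 higher and 0 lower at an adjusted p under 0.05. Pkp2, a plakophilin of the desmosomal plaque, averaged 1211 ± 253 in lactation tumours and 934 ± 180 in control tumours (SD, n = 3 each). Ppl, the cytolinker periplakin, averaged 1110 ± 166 in lactation tumours and 905 ± 192 in control tumours (SD, n = 3 each). Pof1b, an actin-binding protein of epithelial junctions, had 32.4, 243 and 654 in lactation tumours and 339, 348 and 207 in control tumours, with a log2 difference of -0.59. Its lowest and highest tumours were both in the lactation group.

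Of 8 hemidesmosome and basal adhesion genes with a probe set, 6 were tested, 4 with a positive and 2 with a negative difference and a median of 0.03. Limma called 0 of them higher and 0 lower. Lama3, a chain of laminin-332 in the basement membrane under basal cells, had signals of 551, 387 and 842 in lactation tumours and 452, 449 and 1492 in control tumours. Its partner chain Lamb3, chosen after its values were seen, had 768, 513 and 1286 in lactation tumours and 605, 653 and 1333 in control tumours. Both were highest in control replicate 3 and lactation replicate 3, the top 2 tumours of Krt14. Itga3, an integrin that binds this laminin, averaged 2100 ± 412 in lactation tumours and 1671 ± 314 in control tumours (SD, n = 3 each). Itgb4, the integrin chain of hemidesmosomes, averaged 1055 ± 296 in lactation tumours and 944 ± 202 in control tumours (SD, n = 3 each).

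Of 19 squamous programme genes with a probe set, 13 were tested, 9 positive and 4 negative with a median of 0.16, and limma called 0 higher and 0 lower. Trp63, the transcription factor of basal cells, had signals of 930, 1203 and 1564 in lactation tumours and 1114, 983 and 1130 in control tumours, above the array medians throughout. Krt15, a type I keratin of basal cells, had 124, 798 and 1009 in lactation tumours and 128, 381 and 724 in control tumours. It was low in lactation replicate 1 and control replicate 1, where Krt17 was among its own top 3. Krt6a, a type II keratin of wounded epithelium that was chosen after its values were seen, had 188, 528 and 1950 in lactation tumours and 352, 559 and 1492 in control tumours. Lactation replicate 3 and control replicate 3 again held the top 2 places. Sfn, the epithelial 14-3-3 protein sigma, averaged 282 ± 118 in lactation tumours and 167 ± 46.7 in control tumours (SD, n = 3 each), and Gjb2, a gap junction connexin, averaged 130 ± 79.7 in lactation tumours and 188 ± 82.3 in control tumours (SD, n = 3 each).

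Of the 15 tested carcinoma epithelium genes, 13 had a positive difference and 2 a negative one, with a median of 0.33, and limma called 0 higher and 0 lower. St14, the membrane serine protease matriptase, had signals of 1326, 1340 and 2521 in lactation tumours and 1249, 902 and 1089 in control tumours, without overlap. Muc1, a membrane mucin, had 3222, 1662 and 3308 in lactation tumours and 2835, 1500 and 1189 in control tumours. Its top 3 tumours were again those of Krt7, Krt19 and Krt17. Grhl2, an epithelial transcription factor, had 41.4, 203 and 386 in lactation tumours and 301, 185 and 318 in control tumours.

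Other tissues that express the same keratins were checked through lists of marker genes, some of which stood in other lists too. Of 16 epidermal genes with a probe set, 10 lay below the array median on every array, and Krt1, which defines the suprabasal epidermis, averaged 2.35 ± 0.97 in lactation tumours and 2.37 ± 0.34 in control tumours (SD, n = 3 each). Its filament partner Krt10, in contrast, averaged 262 ± 32.5 in lactation tumours and 271 ± 25.9 in control tumours (SD, n = 3 each), above the median on every array. So were Dmkn, at 958 ± 487 in lactation tumours and 1474 ± 577 in control tumours (SD, n = 3 each), Casp14 and Dapl1. The part of skin in the keratin values was not tested. The summed epidermal signal was 1452 to 3025 in lactation tumours and 1945 to 3494 in control tumours. Of 17 hair follicle genes, 15 lay below the median on every array. S100a3 lay above it on every array, with 154, 192 and 301 in lactation tumours and 192, 156 and 220 in control tumours. Foxn1 reached it on 1 array, with 190 in lactation replicate 3. Sums over the 17 genes were 454 to 716 in lactation tumours and 381 to 544 in control tumours. Of 10 myoepithelial genes, 2 lay below the median on every array, Oxtr and Cdh3. The sums were 13624 to 15544 in lactation tumours and 13460 to 17003 in control tumours. Acta2 made up most of each sum, with 9016 to 10201 in lactation tumours and 9341 to 12207 in control tumours. Trp63 also stood in the squamous list and Cdh3 in the hemidesmosome list. The cell type behind these sums was not tested.

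Mammary epithelium also expresses Krt5, Krt14, Krt8 and Krt18. Of 13 mammary genes with a probe set, 9 lay below the array median on every array, with sums of 391 to 1519 in lactation tumours and 359 to 479 in control tumours. The highest sum was that of lactation replicate 2, where the casein genes Csn1s1, Csn2 and Csn3 had 359, 333 and 396. The rest of the list was uneven there. Csn1s2a, Lalba, Muc15 and Elf5 were also highest in that tumour, at 37.7, 57.0, 38.2 and 26.9, but below its array median. Csn1s2b (11.1), Wap (46.3), Glycam1 (5.98), Olah (31.8) and Lao1 (24.1) were not highest there. In the other 5 tumours Csn2 had 1.96 to 27.0, and Csn3 had 53.9 to 76.3. Btn1a1, also on the mammary list, had 179, 152 and 155 in lactation tumours and 168, 109 and 126 in control tumours. It lay above the median on every array. Krt14 and Krt17 were low in lactation replicate 2, and the difference of Krt5 was larger without that tumour. Krt20 and Krt23 were high there, and without that tumour their differences were 1.13 and 0.62. The part of mammary tissue in the values of any keratin was not tested.

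Stromal and leukocyte markers varied too. Of 10 tested fibroblast genes 2 had a positive and 8 a negative difference, and their summed signal was 84110 to 91890 in lactation tumours and 78702 to 117212 in control tumours. The median difference of the 10 fibroblast genes was -0.06. Pdgfrb, a receptor of fibroblasts and pericytes, had the most negative difference, -0.43. It averaged 4095 ± 679 in lactation tumours and 5606 ± 1429 in control tumours (SD, n = 3 each). Col1a1, Col3a1, Dcn and Dpt differed by -0.0075, -0.029, 0.0098 and 0.014. Of 10 tested leukocyte genes 2 had a positive and 8 a negative difference, where 48.3% of all genes tested were positive. The leukocyte sums were 24615 to 35385 in lactation tumours and 32943 to 37720 in control tumours. The median difference of the 10 leukocyte genes was -0.20. Groups were apart for 1 of them, Itgam, which was lower in lactation. Itgam had 208, 218 and 185 in lactation tumours and 224, 404 and 379 in control tumours. Among all genes tested, 3.19% were lower and 3.71% higher without overlap. S100a8 had the opposite sign, with 3378 ± 1063 in lactation tumours and 2368 ± 542 in control tumours (SD, n = 3 each). Ptprc differed by -0.07. The lowest leukocyte sum was that of lactation replicate 3, the tumour with the highest Krt5, Krt7, Krt8, Krt18, Krt19 and Krt20. It was also highest for the brightest probe set of Krt14, while the second bright probe set was highest in control replicate 3. The part of tumour composition in the keratin differences was not tested.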

How the data were processed

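Each array received the total RNA of 1 tumour. The deposited intensity values are MAS5 signals, per the submitters' processing notes; the sources used here do not give a version. Values were above 0 on a linear scale. Trimming 2% from both ends left an array mean of 500.0 on all 6 arrays, so scaling preceded deposit. Of 45101 probe sets, 34958 named 1 gene in the platform annotation, 932 several and 9211 none. RefSeq's Entrez identifiers matched 34754 of the first kind and changed 0 symbols. No scanner file entered the work.

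Log2 was taken after adding 16, with no further normalization. The probe set of highest mean stood for its gene, and 11623 of 18194 genes passed the level filter. limma 3.58.1 (R 4.3.3; lmFit, eBayes with trend, group as the only term, Benjamini-Hochberg at 0.05) set lactation against control and was tested on simulated data. Its p-values measure the spread between tumours that the labels call biological replicates. Tables were made with numpy 2.4.6 and pandas 2.3.3 under Python 3.11.15, and plots with matplotlib 3.10.9.

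The keratins and gene lists were chosen with earlier results of these data known. The text names every keratin of the set, up to 3 tested genes with the largest absolute difference of each filament, adhesion, squamous and carcinoma list, and the 2 genes nearest to each tested keratin. Epcam, Trp63 and single markers of other cell types were chosen after their values were seen. Alternatives covered quantile normalization and median centring, an added constant of 1 or 64, a level filter at the 70th percentile or none at all, averaging a gene's probe sets, eBayes without trend or robust, weights per array, a replicate block, and each array left out.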

Additional observations from a re-analysis of the deposited data

How the results depend on the processing

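With 3 arrays a group, precision is limited by the number of tumours. limma called 0 genes higher and 0 lower in every alternative, also with the replicate block, where 289 genes had an unadjusted p under 0.05. Same-numbered tumours deviated together with correlations of 0.14, -0.08 and 0.27 over the tested genes. Lactation replicate 1 correlated best with control replicate 2 (0.46). With 3 tumours a group these values cannot decide whether the numbers pair the tumours, and the labels do not say. The mean difference of the simple keratins, 0.49, was 0.14 with Krt7, Krt8, Krt18 and Krt19 only and 0.23 relative to carcinoma epithelium genes, both chosen after seeing the data, and 0.34 to 0.66 when each tumour was left out. The basal mean difference ranged from 0.40 to 1.05 and the basal minus simple contrast from -0.10 to 0.59 when each tumour was left out. The difference of Krt18 was -0.011 with arrays centred on their medians and ranged from -0.040 to 0.093 when tumours were left out, and that of Krt8 from -0.016 to 0.092. Without lactation replicate 3 the differences of Krt8 and Krt18 were -0.016 and -0.038, and without control replicate 2 they were -0.0022 and -0.040. With the mean of carcinoma epithelium genes taken off, which lowers each keratin's difference by 0.25, those of Krt7, Krt8 and Krt18 were -0.070, -0.20 and -0.22. In the alternatives other than leaving out a tumour, Krt5 ranged from 0.80 to 1.11, Krt17 from 0.44 to 0.72, Krt20 from 1.13 to 1.56, Krt23 from 0.66 to 1.08, Krt14 from 0.01 to 0.27 and Krt19 from 0.04 to 0.31. The causes of these shifts were not tested.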

Other observations

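Other keratins outside the simple and basal set were mostly dim. Of 37 further keratin genes with a probe set, 25 lay below the array median on every array and 10 were tested, 4 with a positive and 6 with a negative difference and a median of -0.04. limma called 0 of them higher and 0 lower at an adjusted p under 0.05. Krt79, a type II keratin of hair follicle and sebaceous ducts, had signals of 1664, 2004 and 2799 in lactation tumours and 1562, 1878 and 1879 in control tumours. Krt4, a type II keratin of oesophageal and oral mucosa, had 1114, 538 and 1863 in lactation tumours and 1069, 1256 and 912 in control tumours, and was chosen after its values were seen. Krt32, a type I hair keratin, had 90.5, 124 and 127 in lactation tumours and 93.8, 89.2 and 104 in control tumours. Krt79 was highest in lactation replicate 3, as was Krt4, and the groups overlapped for all 3 genes. The probe set shared by Krt17 and Krt14 had signals of 45.1, 55.9 and 64.4 in lactation tumours and 64.8, 34.3 and 45.4 in control tumours, below the array medians throughout.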
